A study of Drosophila melanogaster with 6 samples.

Results

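Heterochromatin is the compact, mostly silent part of the genome, and in flies it is marked by methylation of histone H3 at lysine 9. Methyltransferases write that mark, HP1 proteins read it through their chromodomain and recruit further proteins, and demethylases act against it. Chromosome 4 of Drosophila, the smallest of its chromosomes, is packed in the same way although many of its genes are active, and the RNA-binding protein POF coats it and keeps its output up. Loss of heterochromatin with age has been described in flies, and G9a is known for its part in their memory.

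The genes described here are 10 regulators of heterochromatin and of chromosome 4, taken by gene symbol from the 17483 genes of the deposited table: Su(var)2-5, HP1b, HP1c, Su(var)3-9, egg, G9a, Su(var)3-7, Su(var)2-HP2, Pof and Kdm4A. The list was set by gene symbol and uses no threshold on a measured value, but earlier results of these data were known when it was made. Su(var)2-5 is the gene of HP1a. Messenger RNA was sequenced from brains dissected by hand from wild-type flies (w1118, a laboratory strain with white eyes) at 15 days of age. There were 3 libraries from flies on food with spermidine, a natural polyamine, and 3 from flies on normal food without it. The dose, the sex of the flies and the number of brains per library are not in the labels, and nothing there says that the replicates came from separate cultures. The p-values therefore reflect only how these libraries scatter, and that scatter may be technical.

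Levels are given in FPKM, fragments scaled to the length of the transcript and to the size of the library, so that levels of different genes can be set beside each other. All 10 genes had a valid estimate in every library, 60 values in all, and all passed the filter on low values. Differences between foods were tested with limma on log2(FPKM + 1) over 10393 genes, with Benjamini-Hochberg adjustment and a threshold of 0.05. Fold changes are spermidine food over normal food on that scale, which understates changes of low genes. In bulk tissue, fewer cells of a type and less RNA per cell cannot be told apart.

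The libraries were brain by their markers, with nSyb between 737 and 743 FPKM on spermidine food and between 728 and 757 FPKM on normal food. No neuronal or glial marker of 11 passed limma's test (1 had an unadjusted p under 0.05, against 20.9% of all tested genes). Other tissues differed between the libraries. Of 6 tested fat body markers 4 rose, and their summed level ran from 9629 to 10639 FPKM on spermidine food and from 1910 to 2511 FPKM on normal food. Of 4 tested haemocyte markers 1 rose, with summed levels of 25.3 to 26.7 FPKM on spermidine food and 14.7 to 22.8 FPKM on normal food. The 6 eye markers summed to between 5523 and 7949 FPKM on spermidine food and between 933 and 6214 FPKM on normal food, lowest in normal food replicate 1. The part of these tissues in the values of the regulators was not tested. Without normal food replicate 1 no regulator passed, as with all 6 libraries, and only 2.85% of all tested genes did. That count therefore cannot show the part of these tissues. No tested marker of muscle, germline or dividing cells passed, and none of these 8 had an unadjusted p under 0.05 (limma; zpg at 0 in every library, PCNA between 0.629 and 0.656 FPKM on spermidine food and between 0.486 and 0.743 FPKM on normal food).

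None of the 10 regulators passed the test in either direction, while 4.61% of all tested genes did, 3.12% as higher and 1.49% as lower on spermidine food. At an unadjusted p under 0.05 none of the 10 passed either, against 20.9% of all tested genes. The values of the 2 foods overlapped in all 10 genes, whereas they did not overlap in 28.0% of all tested genes. The fitted log2 fold changes lay between -0.11 for Su(var)2-5 and 0.048 for Su(var)2-HP2, with 6 genes at a lower and 4 at a higher mean, and a median of -0.026 beside 0.022 for all tested genes. The 95% intervals of the 10 genes reached from -0.23 to 0.19. Differences beyond 0.855-fold or 1.14-fold in FPKM + 1 thus lay outside the interval of every one of them. In FPKM itself the limits are wider, most so for Su(var)3-9, the lowest gene, which set the bound of 1.14-fold. Adjusted p-values ranged from 0.293 to 0.958 (limma). The residual SD of the 10 genes had a median of 0.0536 on the log2 scale, beside 0.0740 for the 7403 tested genes of the same range of levels.

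The HP1 proteins are the readers of the mark. Su(var)2-5 encodes HP1a, the founding member of the family and the main structural protein of fly heterochromatin; the gene (FBgn0003607) lies on 2L from 8209626 to 8211122 in the coordinates of the table. It had 78.9, 76.7 and 71.9 FPKM in spermidine food replicates 1, 2 and 3, against 83.3, 83.9 and 77.9 FPKM in normal food replicates 1, 2 and 3. The highest spermidine food library thus stood just above the lowest normal food library, and the other spermidine food libraries stood below all of those on normal food. The log2 fold change was -0.11 ± 0.049 (SE), with a 95% interval from -0.23 to 0.014 and an adjusted p of 0.293 (limma). With 1 library left out, it ranged from -0.14 to -0.069. Its annotated span meets CG8419 on the opposite strand in only 12 exonic bases.

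HP1b and HP1c are paralogues of HP1a, and HP1c is known mainly from active, euchromatic genes. HP1b (FBgn0030082, X, 9081063 to 9082746) had 23.7, 24.3 and 24.98 FPKM on spermidine food, against 26.5, 24.0 and 26.0 FPKM on normal food. The foods overlapped because normal food replicate 2 lay within the range of the spermidine food libraries. HP1c (FBgn0039019, 3R, 22745620 to 22746605), a gene of a single exon, had 15.8, 15.0 and 16.1 FPKM on spermidine food, against 16.1, 15.0 and 15.6 FPKM on normal food. Both foods had their lowest HP1c value at 15.0 FPKM, and the log2 fold change was 0.0060 ± 0.048 (SE). Summed over the 3 paralogues, the level was 118, 116 and 113 FPKM on spermidine food, against 126, 123 and 119 FPKM on normal food. Those 2 ranges did not overlap, as was so for 28.0% of all tested genes taken singly. No test is given for this sum. HP1a made up 65.5% of it on spermidine food and 66.5% on normal food.

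The mark itself is written by 3 methyltransferases among the 10 genes. Su(var)3-9 acts mainly at pericentric heterochromatin, egg (eggless, the fly SETDB1) is known as the methyltransferase of chromosome 4, and G9a acts mainly in euchromatin. G9a (FBgn0040372, X, 245978 to 254650) had 21.3, 19.9 and 19.4 FPKM on spermidine food, against 20.5, 21.0 and 21.1 FPKM on normal food. Spermidine food replicate 1 was the highest of all 6 libraries and replicates 2 and 3 were the lowest, so the difference of the means was smaller than the range within spermidine food. The gene egg (FBgn0086908, 2R, 24775534 to 24779901) had 10.1, 10.9 and 10.1 FPKM on spermidine food, against 10.9, 10.3 and 10.8 FPKM on normal food. The fold changes of G9a and egg were -0.043 ± 0.045 and -0.034 ± 0.050 on the log2 scale (SE).

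Su(var)3-9 (FBgn0263755, 3R, 15259864 to 15263458) had the lowest level of the 10, with 2.82, 2.80 and 2.81 FPKM on spermidine food, against 2.59, 2.65 and 3.03 FPKM on normal food. The spermidine food libraries were almost equal and lay inside the wider range of the normal food libraries. Its log2 fold change was 0.022 ± 0.069 (SE), with a 95% interval up to 0.19. On the same strand lies eIF2gamma, which encodes a subunit of a translation initiation factor and shares 352 bases of exon with it, 14.8% of the exonic bases of Su(var)3-9. As eIF2gamma stood at 30.8, 32.8 and 34.5 FPKM on spermidine food, against 32.3, 30.8 and 31.4 FPKM on normal food, and reads of the shared bases cannot be assigned to either gene, the low values of Su(var)3-9 are uncertain. The 3 methyltransferases summed to 34.3, 33.6 and 32.4 FPKM on spermidine food, against 34.0, 33.9 and 34.9 FPKM on normal food. These ranges overlapped. G9a made up 60.5% of the summed level of the 3 methyltransferases on spermidine food and 60.9% on normal food, egg 31.1% on both, and Su(var)3-9 8.41% and 8.05% on the same foods.

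Su(var)3-7, a zinc-finger protein, and Su(var)2-HP2 bind HP1a and spread with it over heterochromatin. Su(var)3-7 (FBgn0003598, 3R, 13264364 to 13270038) had 14.4, 15.1 and 13.8 FPKM on spermidine food, against 15.1, 14.4 and 14.4 FPKM on normal food. The spermidine food libraries held both its highest and its lowest value. Su(var)2-HP2 (FBgn0026427, 2R, 14607154 to 14618118), the longest of the 10 genes with 10289 exonic bases, had 19.5, 19.4 and 18.0 FPKM on spermidine food, against 17.2, 18.8 and 19.0 FPKM on normal food. Spermidine food replicate 3 lay within the range of the normal food libraries. The log2 fold change was 0.048 ± 0.055 (SE), and it ranged from 0.0072 without normal food replicate 1 to 0.085 without spermidine food replicate 3.

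Pof encodes the painting-of-fourth protein, and Kdm4A a histone demethylase that binds HP1a. Pof (FBgn0035047, 2R, 24669397 to 24671577) had 15.1, 15.6 and 16.2 FPKM on spermidine food, against 15.2, 15.7 and 15.5 FPKM on normal food. The normal food libraries lay inside the range of the spermidine food libraries, and the log2 fold change was 0.013 ± 0.042 (SE), with a 95% interval from -0.089 to 0.11. Kdm4A (FBgn0033233, 2R, 7922775 to 7924988) had 9.79, 9.45 and 10.4 FPKM on spermidine food, against 10.7, 10.2 and 9.78 FPKM on normal food. Normal food replicate 3 and spermidine food replicate 1 were almost equal, and the fold change was -0.043 ± 0.057 on the log2 scale (SE).

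**Figure D1:**
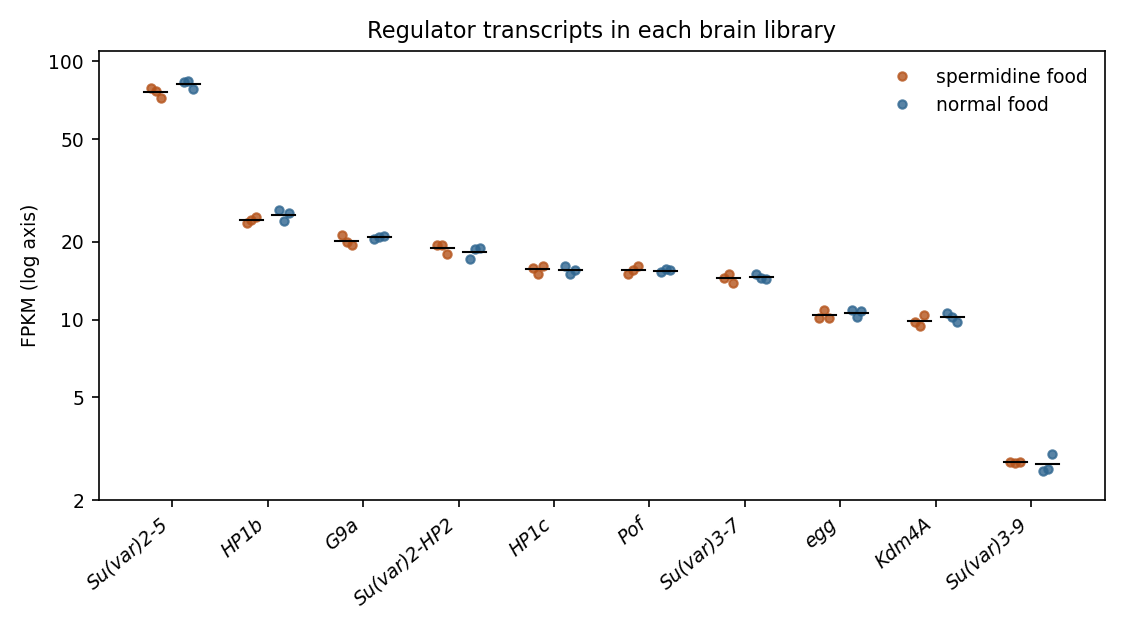
FPKM (log axis) of each of the 10 regulator genes, ordered by their mean over all libraries; each point is 1 library, spermidine food left and normal food right, and the black line is the mean of the 3 libraries. The points of both foods overlap in every gene, with Su(var)2-5 between 71.9 and 83.9 FPKM at the top and Su(var)3-9 between 2.59 and 3.03 FPKM at the bottom.

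**Figure D2:**
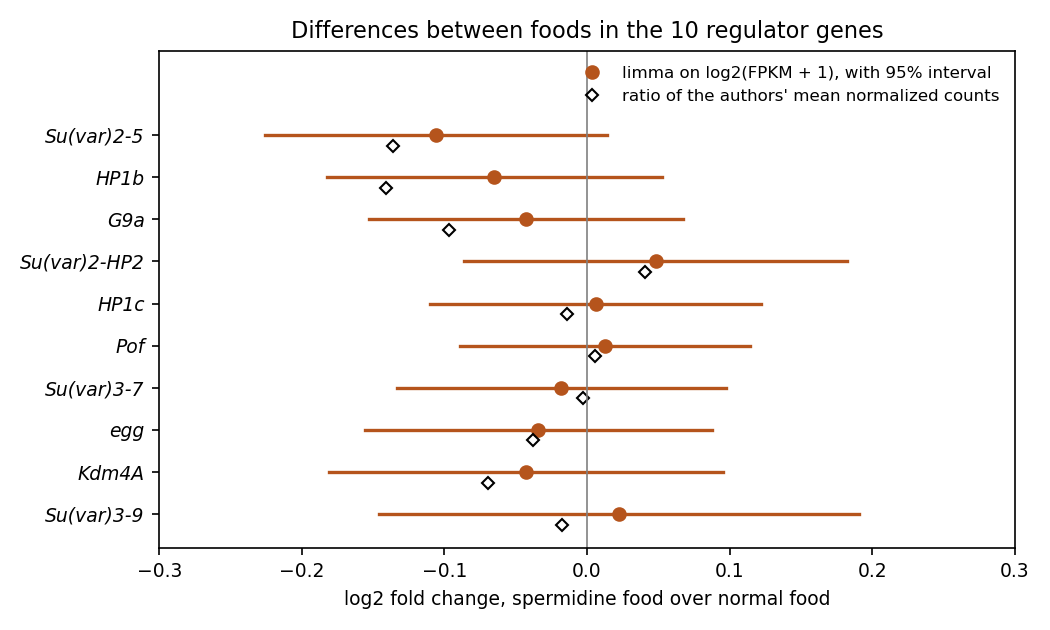
Log2 fold change of each regulator gene, spermidine food over normal food; filled points are limma estimates on log2(FPKM + 1) over 3 libraries per food with their 95% interval, and open diamonds are the log2 ratio of the authors' mean normalized counts. All 10 intervals include 0, and the diamonds of Su(var)2-5 and HP1b, both at -0.14, lie furthest to the left.

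The authors' deposited table also gives a mean per food and gene, taken here as a normalized read count because its totals were nearly equal (47904049 on spermidine food and 48052547 on normal food). By its means, 8 of the 10 regulators were lower on spermidine food and 2 were higher, with no value per library. Su(var)2-5 averaged 3210 normalized reads on spermidine food and 3527 on normal food, a deposited fold change of -1.09 with an unadjusted p of 0.0194. HP1b averaged 1214 normalized reads on spermidine food and 1339 on normal food in the authors' deposited table, a fold change of -1.1 with an unadjusted p of 0.0189. For G9a the authors' deposited table gave 6939 on spermidine food and 7419 on normal food, with an unadjusted p of 0.0475. These 3 of 10 genes under 0.05 compare with 25.5% of all tested genes at that unadjusted p in the same table, or 13.1% when only genes with a lower mean on spermidine food are counted, as all 3 were. Adjusted over the tested genes, none of the 10 passed, the smallest values being 0.0935 for HP1b and 0.0955 for Su(var)2-5, against 16.9% of all tested genes. Su(var)3-9 rested on the fewest reads, with 281 normalized reads on spermidine food and 284 on normal food in the authors' deposited table.

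The order of the levels was the same on both foods. Over all 6 libraries Su(var)2-5 averaged 78.8 ± 4.44 FPKM (SD, n = 6), above 89.1% of the tested genes or level with them, followed by HP1b with 24.9 ± 1.13, G9a with 20.5 ± 0.74, Su(var)2-HP2 with 18.6 ± 0.89, HP1c with 15.6 ± 0.514, Pof with 15.5 ± 0.38, Su(var)3-7 with 14.5 ± 0.48, egg with 10.5 ± 0.37, Kdm4A with 10.1 ± 0.46 and Su(var)3-9 with 2.78 ± 0.15 FPKM (SD, n = 6 each). Of the 9 pairs of neighbours in this order, 7 kept the same direction in all 6 libraries. HP1c was higher than Pof in 3 of 6 libraries, and egg was higher than Kdm4A in 5 of 6. Their mean differences within a library were 0.0066 ± 0.058 and 0.059 ± 0.083 in log2(FPKM + 1) (SD, n = 6 each). The pairs were set by these same values, so no test of the order is given. The coefficients of variation within a food ran from 0.444% for Su(var)3-9 on spermidine food to 8.61% for Su(var)3-9 on normal food.

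The balance between regulators within a library was compared between foods for 6 pairs, as the difference of their log2(FPKM + 1) values, called a log2 ratio here. Because of the added 1, this lies somewhat closer to 0 than the log2 of the FPKM ratio. The log2 ratio of HP1b to Su(var)2-5 was -1.69, -1.62 and -1.49 on spermidine food, against -1.61, -1.76 and -1.55 on normal food (exact permutation p = 0.8). That of HP1c to Su(var)2-5 averaged -2.21 ± 0.10 on spermidine food and -2.32 ± 0.08 on normal food (SD, n = 3 each; exact permutation p = 0.3). In both ratios the foods overlapped. The ratio of Su(var)2-HP2 to its partner Su(var)2-5 was -1.96, -1.93 and -1.94 on spermidine food, against -2.21, -2.10 and -1.98 on normal food, and here the 2 foods did not overlap. Its difference of 0.15 had an exact two-sided permutation p of 0.1, the smallest that 3 against 3 libraries allow, and an adjusted p of 0.6 over the 6 ratios. Among the enzymes, the ratios to egg of Su(var)3-9, G9a and Kdm4A differed by 0.057, -0.0083 and -0.0088 on the log2 scale, each with overlapping foods and exact permutation p-values of 0.5, 1 and 0.9. Of these 6 ratios, none passed the adjustment.

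Other genes of heterochromatin formed a list of 34, of which 33 matched a row and 27 were tested. Of these 27, none rose and 1 fell, and the median log2 fold change was 0.0028 beside 0.022 for all tested genes. The gene that fell was cav, which encodes HOAP, a telomere-capping partner of HP1a. It had 7.60, 7.86 and 7.46 FPKM on spermidine food, against 9.16, 9.18 and 9.91 FPKM on normal food (limma, log2 fold change -0.27 ± 0.052 (SE), adjusted p = 0.045). The call of cav held under 8 of 16 alternatives and ended without each library in turn, at adjusted p-values between 0.081 and 0.158 (limma), without the filter on low values (0.080) and with the replicate block (0.138). Calls over all tested genes dropped too, from 479 to between 46 and 309 with 1 library left out. They dropped to 222 with the block and to 69 without the filter. The log2 fold change of cav stayed between -0.29 and -0.25 with 1 library left out. Of the other genes on this list, wde, HP4, HP5, Su(var)3-3 and Kdm4B did not pass. The cofactor of egg, wde (windei), had a log2 fold change of 0.0028, and the HP1a-binding proteins HP4 and HP5 had -0.049 and -0.025. Su(var)3-3 (LSD1) had -0.093 and the demethylase Kdm4B had 0.089. The germline HP1 relatives were close to 0 in these brains, with rhi between 0.108 and 0.211 FPKM on spermidine food and between 0.065 and 0.126 FPKM on normal food, and HP1e at or below 0.188 FPKM on spermidine food and at or below 0.140 FPKM on normal food. HP6, a short relative of HP1, had 0.186, 0.064 and 0.769 FPKM on spermidine food, against 0, 0.266 and 0.192 FPKM on normal food, so that a single spermidine food library lay above the range of normal food.

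Of 19 Polycomb genes none rose and 1 fell, with a median of 0.017 on the log2 scale, where 4.61% of all tested genes passed in either direction. The gene that fell was pho, which encodes a DNA-binding Polycomb protein and lies on chromosome 4 from 1172469 to 1181628. It had 39.8, 41.0 and 36.5 FPKM on spermidine food, against 61.3, 56.2 and 52.8 FPKM on normal food (limma, log2 fold change -0.53 ± 0.069 (SE), adjusted p = 0.017). All spermidine food libraries of pho stood well below those on normal food, and the call held under 12 of 16 alternatives. It ended without replicate 1 or 3 of spermidine food or replicate 2 of normal food, where limma's adjusted p was 0.058, 0.080 and 0.052, and without the filter on low values, where it was 0.074. Of 13 trithorax-group genes with an estimate in every library 1 fell and none rose. That gene was Set1, the main writer of methylation at lysine 4 of histone H3 (3L, 25107594 to 25115180), with 43.2, 43.0 and 39.3 FPKM on spermidine food, against 51.9, 49.4 and 49.4 FPKM on normal food. Its log2 fold change was -0.26 ± 0.048 (SE; limma, adjusted p = 0.041), and this call held under 7 of 16 alternatives. It ended without each library in turn, at adjusted p-values between 0.081 and 0.106 (limma), without the filter on low values (0.102), without the trend (0.062) and with the replicate block (0.073). With 1 library left out, calls over all tested genes dropped as well, from 479 to between 46 and 309. The log2 fold changes then stayed between -0.28 and -0.22 for Set1 and between -0.58 and -0.47 for pho. The gene lid, which was left out of the trithorax-group count, is listed at 0 in spermidine food replicate 2 because its estimate failed there.

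None of 14 tested genes of small-RNA silencing passed limma's test, with 2 at an unadjusted p under 0.05, against 20.9% of all tested genes. These were AGO2 and r2d2, both of the short interfering RNA pathway, with log2 fold changes of 0.12 and 0.11 (limma, adjusted p = 0.159 and 0.152). None of 7 tested dosage compensation genes passed either, with 2 at an unadjusted p under 0.05, beside the same 20.9%. The noncoding RNA roX1 had 6.72, 7.07 and 6.26 FPKM on spermidine food, against 9.72, 8.80 and 8.15 FPKM on normal food (limma, adjusted p = 0.059). For msl-2, the male-specific subunit of the complex that roX1 belongs to, the log2 fold change was -0.17 (limma, adjusted p = 0.087).

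**Figure D3:**
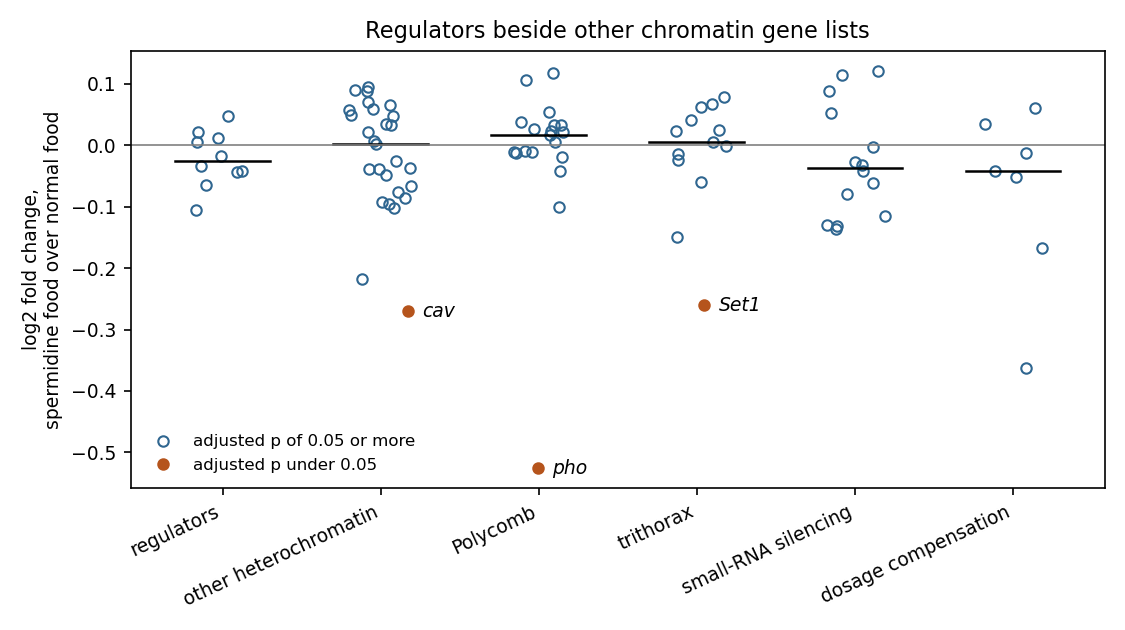
Log2 fold change, spermidine food over normal food, of the 10 regulators and of the tested members of 5 other chromatin lists (lid left out for a failed estimate); each circle is 1 gene, filled where the adjusted p in limma was under 0.05, and the black line is the list's median. Only cav, pho and Set1 are filled, all below 0, and no regulator lies below -0.11.

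Some of the regulators share sequence with genes on the other strand. The kit marks strand, but the sources used here do not say whether counting used it, so reads of the shared bases cannot be told apart. The overlap covered 13.7% of the exonic bases of Su(var)3-7 (with TBC1D5), 16.0% of egg (with asRNA:CR44067), 16.2% of HP1c (with CG17141) and 14.1% of Pof (with Mmp1), so the place of Pof just above Su(var)3-7 in the order of levels is uncertain. TBC1D5 rose, with 16.8, 16.9 and 16.9 FPKM on spermidine food, against 14.1, 14.5 and 15.0 FPKM on normal food (limma, log2 fold change 0.20 ± 0.039 (SE), adjusted p = 0.045), while Su(var)3-7 on the other strand had a log2 fold change of -0.018. The call of TBC1D5 held under 5 of 16 alternatives. It ended without each library in turn, at adjusted p-values between 0.081 and 0.156 (limma), and also under median-ratio scaling (adjusted p = 0.061), quantile normalization (0.079), no filter on low values (0.063), no trend (0.054) and the replicate block (0.123). Calls over all tested genes dropped from 479 to between 46 and 309 with 1 library left out. They rose to 567 under median-ratio scaling and to 603 under quantile normalization. With 1 library left out, the log2 fold change of TBC1D5 stayed between 0.18 and 0.22. The partners of egg, HP1c and Pof did not pass, with log2 fold changes of 0.092, 0.20 and 0.11.

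None of the 10 regulators lies on chromosome 4, which HP1a is known to coat. None lies within 2 Mb of the most proximal annotated gene of 2L, 3L or 3R, called pericentromeric here. That window is a fixed distance, not a measured border of heterochromatin, and 2R and X were not included. Set1 on 3L lies outside this window, which does not show whether it lies in heterochromatin. Of 101 tested genes of chromosome 4, 34 fell and none rose, a share of 33.7% beside 4.61% of all tested genes, with a median log2 fold change of -0.18. The count of falls varied with the library left out, as did the calls over all tested genes. It was 2, 18 and 1 without spermidine food replicates 1, 2 and 3. Those were shares of 1.98%, 17.8% and 0.990%, beside 1.33%, 2.97% and 0.443% of all tested genes. Without normal food replicates 1, 2 and 3 the count was 16, 8 and 20. Those were shares of 15.8%, 7.92% and 19.8%, beside 2.85%, 2.17% and 2.58% of all tested genes. The median stayed between -0.20 and -0.15. With the authors' deposited p-values, adjusted here, 52 genes of chromosome 4 were lower on spermidine food and 1 was higher. That was 52.5%, beside 16.9% of all tested genes. Without the filter on low values 1 of 111 fell, 0.901% beside 0.399% of all genes in that fit. Of 61 tested pericentromeric genes 8 fell and none rose, 13.1% beside 4.61% of all tested genes, with a median of -0.047. Between 1 and 7 fell when 1 library was left out. Those were shares of 1.64% to 11.5%, beside 0.443% to 2.97% of all tested genes. When the filter on low values was dropped, 1 of 232 pericentromeric genes fell, 0.431% beside 0.399%, and the median was 0.0024. By the authors' deposited p-values, adjusted here, 21 pericentromeric genes were lower on spermidine food and 1 was higher, 36.1% beside 16.9%. Whether protein levels or binding of the regulators differed between foods was not measured.

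**Figure D4:**
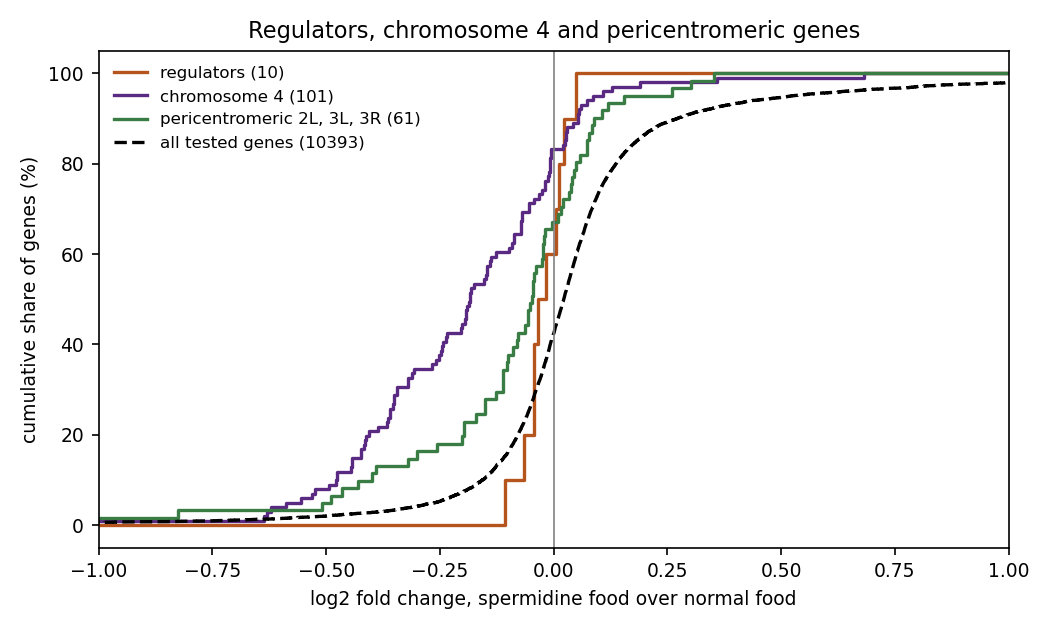
Cumulative share of genes (%) against log2 fold change, spermidine food over normal food, for the 10 regulators, the 101 tested genes of chromosome 4, the 61 tested pericentromeric genes of 2L, 3L and 3R and all 10393 tested genes; the number of genes is in the legend and changes beyond the axis are not drawn. The line of chromosome 4 lies to the left, with a median of -0.18, while the regulators lie between -0.11 and 0.048.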

How the data were processed

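Stranded mRNA libraries were prepared from 6 brain samples, each with 100 ng of RNA, per the labels' protocols. The authors deposited FPKM values with an estimation status for every gene and library. For each food they deposited a mean, taken here as a normalized count (a signal that exists for the group only), and for the comparison a signed fold change (a score) and an unadjusted p-value. Per the submitters' processing notes, Cufflinks, DESeq and HTSeq were used; neither their versions nor an aligner is given in the sources used here. The file headers give Ensembl build 82 for the gene models. Overlaps between genes come from Ensembl release 115, in which all 10 genes have the same span as in the table. The gene called Su(var)2-5, its RefSeq synonym, has the current symbol Su(var)205.

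Here limma 3.58.1 (R 4.3.3) with an intensity trend, two-sided and without covariates, was run on log2(FPKM + 1). It took the 10393 genes that reached 0.5 FPKM in 3 or more of the 6 libraries and had a valid status in 1 or more; 184 genes had none, and 27 tested genes had a failed estimate, listed at 0, in some library. FPKM summed to between 615229 and 720639 per library. Read counts per library are not used here, so the depth is unknown and no counting intervals are given. Ratios were compared with exact permutation tests (scipy 1.17.1). The model was tested on simulated data. The members and gene lists were chosen with earlier results of these data known. Named genes are the 10 members, genes of each list past the threshold (otherwise the 2 of smallest p), genes overlapping a member, and the 3 genes of most similar profile for Su(var)2-5 and Pof. Added after their values were seen were wde, HP4, HP5, Su(var)3-3, Kdm4B, rhi, HP1e, HP6, lid, nSyb, zpg and PCNA. The same holds for Yp1, Yp2, Yp3, fit, apolpp and Lsp2. The planned search for promoter motifs was not run. Same-numbered libraries of the 2 foods deviated from their group means with correlations of 0.0075, -0.13 and -0.048 over the tested genes, so the numbers were not taken as pairs.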

Additional observations from a re-analysis of the deposited data

How the results depend on the processing

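The count of regulators past the threshold stayed 0 under all 16 alternatives, which were other pseudocounts, scalings and filters, no trend, the replicate block, the authors' p-values, each library left out, and, chosen after seeing the data, a valid status in every library. Few of all tested genes passed under several of them, 0.443% to 2.97% with 1 library left out. Without the filter on low values, 0.399% of all genes in that fit passed. The largest share was 16.9%, with the authors' p-values. In so short a list, a count of 0 at such shares does not set the regulators apart from other genes. In 5 of the 16 alternatives (the 2 other filters, no trend, the block and the status rule) the fold changes cannot move. Of the 110 fold changes under the other 11, 96 kept their direction and 14 turned it. In the authors' means and without normal food replicate 2 or spermidine food replicate 3, HP1b was lower than Su(var)2-5, at -0.14, -0.11 and -0.084. Under quantile normalization the log2 fold changes of Su(var)3-9, HP1c and Pof were -0.051, -0.039 and -0.027. Under median-ratio scaling HP1c and Pof had -0.016 and -0.0091, and in the authors' means Su(var)3-9 and HP1c had -0.017 and -0.014. With 1 library left out, the range was -0.0091 to 0.074 for Su(var)3-9, -0.048 to 0.012 for Su(var)3-7, -0.019 to 0.035 for HP1c and -0.011 to 0.037 for Pof. The differences in log2 ratio then ranged from -0.019 to 0.088 for HP1b to Su(var)2-5, from -0.061 to 0.032 for G9a to egg and from -0.060 to 0.051 for Kdm4A to egg. With the replicate block, 222 of all tested genes passed, against 479 without it, and Su(var)2-5 had -0.11 (adjusted p = 0.208, limma). The smallest adjusted p of a regulator under any of the alternatives was 0.0935, from the authors' p-values. The cause of these shifts was not tested.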

Other observations

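The genes whose profile over the 6 libraries was most like that of Su(var)2-5 on the log2(FPKM + 1) scale were CG6999, CCAP-R (a receptor of the peptide CCAP) and the mitochondrial mt:CoIII, a subunit of cytochrome oxidase, with Pearson r of 0.992, 0.984 and 0.976. CG6999 had 15.9, 15.6 and 14.5 FPKM on spermidine food, against 17.1, 16.9 and 15.9 FPKM on normal food. For Pof they were Nup75, a protein of the nuclear pore, BtbVII and CG6418, with r of 0.996, 0.988 and 0.987. Of the 9647 genes searched, 99 had an r over 0.9 with Su(var)2-5 and 68 with Pof. These are descriptions over 6 libraries, with no test.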
